A study of Mus musculus with 24 samples.

Results

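Cuff-operated mice were compared with sham-operated mice 8 weeks after surgery, in RNA of the anterior cingulate cortex hybridised to Illumina bead arrays. The comparison set 6 cuff arrays against 6 sham arrays, 12 of the 24 arrays of the series. Its standard errors and model p-values also drew on the other 12 arrays, because 1 fit to all 24 estimated the spread. All mice were male C57BL/6J, and the other 12 arrays came from cuff and sham mice taken at 2 weeks. Cuff surgery places a short tube around the sciatic nerve and produces a lasting neuropathic pain, and sham surgery exposes the nerve without the tube. The series title concerns the depression-like state that follows such pain. Both groups of this comparison had therefore undergone surgery, and no unoperated mice were analysed here. A probe entered the comparison when its detection p was under 0.05 on at least 6 of the 12 arrays, which kept 20825 of 45281 probes (46.0%). Of these, 17662 carried 1 gene symbol, for 11172 genes in all.

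The anterior cingulate cortex, a midline frontal region, takes part in the unpleasantness of pain and in mood. Neurons that fire strongly switch on immediate early genes within minutes, through calcium and the ERK branch of the mitogen-activated protein (MAP) kinase pathway acting on the transcription factors CREB and SRF. Among the early genes are transcription factors (Fos, Egr), synaptic effectors (Arc) and phosphatases that switch MAP kinases off again, of which MKP-1, the product of Dusp1, is one.

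On the 8-week arrays between 20168 and 21545 probes were detected, median raw signals spanned 79.2 to 97.2 units, and array pairs correlated at 0.978 to 0.995 over the kept probes. Of the markers of cortical excitatory neurons, 14 of the 15 kept were detected on all 12 arrays, and for interneurons, astrocytes and microglia it was 17 of 17, 14 of 14 and 14 of 14. These counts start from genes that had already passed the detection rule, which favours high shares. Of the markers with a named probe, 15 of 17, 17 of 22, 14 of 15 and 14 of 15 were kept, in the same order. Striatal markers, from the tissue that lies below the cingulate cortex, were detected on all 12 arrays for 8 of 9 kept genes, while Drd2 was not among the kept genes. The mice carried the numbers 22 to 42 (cuff) and 21 to 36 (sham), and the labels give no slide or scan.

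No probe passed the threshold at 8 weeks. An adjusted p under 0.05 was reached by 0 of 20825 probes (0%), the smallest being 0.0855. An unadjusted p under 0.05 was given by 804 probes (3.86%), 411 higher in cuff (1.97%) and 393 lower in cuff (1.89%), where a set of probes with no difference would give about 1041. The median log2 difference over all kept probes was -0.00. Log2 differences over 0.5 were few, 38 probes higher and 8 lower in cuff. Of the 38, 32 carried a symbol and 16 were named for a gene of the immediate early, effector and phosphatase lists described below, 14 genes of the 48 kept in those lists. The 8-week values that follow are therefore estimates that did not pass on their own unless an alternative fit is named, and a difference is given as cuff minus sham on the log2 scale with its standard error (SE). Every adjusted p is from limma over all 20825 probes.

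Upstream sequences are shown for 6 of the genes with higher signal in cuff, because short cyclic AMP response elements (CRE), the sites that CREB binds, mark many activity-regulated promoters. They are the 250 bases before the annotated start in RefSeq (GRCm38.p6), read 5′ to 3′ on the strand of the gene, and capitals mark each CRE half-site (TGACG, or CGTCA on the other strand).
Fos (chr12:85473640-85473889, + strand): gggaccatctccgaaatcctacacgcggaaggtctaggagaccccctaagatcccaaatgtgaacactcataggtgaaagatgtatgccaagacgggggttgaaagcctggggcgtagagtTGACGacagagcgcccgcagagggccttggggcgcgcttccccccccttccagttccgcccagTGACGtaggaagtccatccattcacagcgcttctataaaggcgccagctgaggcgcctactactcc
Fosb (chr7:19310046-19310295, - strand): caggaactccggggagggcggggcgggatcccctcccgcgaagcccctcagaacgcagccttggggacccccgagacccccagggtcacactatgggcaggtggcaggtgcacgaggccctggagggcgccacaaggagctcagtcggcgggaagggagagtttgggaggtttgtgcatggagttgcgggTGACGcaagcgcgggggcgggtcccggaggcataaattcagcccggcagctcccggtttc
Junb (chr8:84978749-84978998, - strand): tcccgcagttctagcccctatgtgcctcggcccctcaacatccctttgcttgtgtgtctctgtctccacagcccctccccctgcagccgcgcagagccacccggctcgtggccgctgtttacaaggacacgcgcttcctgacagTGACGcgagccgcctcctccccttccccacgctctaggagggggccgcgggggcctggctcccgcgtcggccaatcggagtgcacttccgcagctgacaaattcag
Npas4 (chr19:4989972-4990221, - strand): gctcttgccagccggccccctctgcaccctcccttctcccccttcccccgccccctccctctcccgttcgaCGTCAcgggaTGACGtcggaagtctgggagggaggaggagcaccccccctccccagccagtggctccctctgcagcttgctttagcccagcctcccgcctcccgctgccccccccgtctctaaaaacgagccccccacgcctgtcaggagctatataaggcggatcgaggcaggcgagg
Dusp1 (chr17:26508473-26508722, - strand): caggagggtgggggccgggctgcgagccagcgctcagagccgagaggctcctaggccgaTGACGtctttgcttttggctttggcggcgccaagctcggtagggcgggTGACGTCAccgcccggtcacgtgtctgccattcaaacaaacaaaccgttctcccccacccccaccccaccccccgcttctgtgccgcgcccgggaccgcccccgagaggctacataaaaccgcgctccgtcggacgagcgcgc
Fosl2 (chr5:32136222-32136471, + strand): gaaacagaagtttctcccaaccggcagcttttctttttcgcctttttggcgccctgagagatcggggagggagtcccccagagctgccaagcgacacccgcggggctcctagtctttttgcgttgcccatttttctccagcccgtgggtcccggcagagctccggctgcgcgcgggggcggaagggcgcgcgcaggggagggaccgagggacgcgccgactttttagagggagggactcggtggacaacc
Fos and Npas4 held 2 half-sites each and Dusp1 held 3, of which 2 overlap as a full palindrome. Fosb and Junb held 1 each, and Fosl2 held none. Across the genes of these lists with an unadjusted p under 0.05 and higher signal in cuff, 23 in all, 18 had an upstream window in the table, and 13 of the 18 (72.2%) held a half-site. Of all 27025 genes in the table, 19.8% did. A CArG box, the site of SRF, was found in 3 of the 18, against 1.62% of all genes. The lists were chosen as activity-regulated and phosphatase genes, and the share among their members without such a p was not counted. The contrast with all genes can therefore come from the choice of lists and does not bear on cuff. These matches describe letters in a window and say nothing of binding.

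The immediate early transcription factors were, as a group, higher in cuff at 8 weeks. Of 26 genes in the list 18 were kept, 17 of the 18 differed by more than 0 (49.3% of all probes did), and 12 had an unadjusted p under 0.05 and higher signal in cuff, against 1.97% of all probes. None of the 18 had an unadjusted p under 0.05 in the other direction. The median difference of the 18 was 0.49, against -0.00 over all probes. This list and those below were chosen with earlier results of these data known, so their counts are descriptions. Nr4a1, Nr4a3, Atf3, Btg2, Ier2, Ier5 and Maff were not kept, and Fosl1 was not analysed here.

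Egr2, a zinc finger factor of the Egr family, had the largest difference of the list. Its log2 signal was lowest at 9.47, median 10.10 and highest at 10.59 in cuff, and lowest at 7.73, median 8.75 and highest at 9.71 in sham. The groups overlapped, since 1 sham array lay within the cuff range, and 4 of 6 cuff values exceeded the highest sham value. Such a separation or better was found for 728 of all probes (3.5%), and for 9 of the 18 members. The difference was 1.33 ± 0.27 (SE), a 2.51-fold difference with an adjusted p of 0.228 and an exact two-sided permutation p of 0.00649 over the 924 ways to divide the 12 arrays.

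Fos, a subunit of the AP-1 factor and the classical marker of neuronal activation, had 10.95, 11.41 and 11.68 in cuff (lowest, median, highest) and 8.99, 10.27 and 11.11 in sham. Only the lowest cuff array fell inside the sham range. The difference was 1.15 ± 0.28 (SE), 2.22-fold, with an adjusted p of 0.400. Its relatives within AP-1 varied in size. Fosb differed by 0.70 ± 0.21 and Junb by 0.76 ± 0.25 (SE), and Jun, their dimer partner, by 0.19 ± 0.15 (SE). The highest sham value was exceeded by 4 of 6 cuff arrays for Fosb and by only 1 of 6 for Junb.

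Fosl2, another Fos relative, was the gene of the list whose groups did not overlap at all. It had 9.05, 9.35 and 9.58 in cuff and 8.53, 8.81 and 8.94 in sham. The lowest cuff array exceeded the highest sham array, which was so for 42 of the 20825 probes (0.202%). The difference was 0.56 ± 0.12 (SE), with an adjusted p of 0.228 and an exact permutation p of 0.00216, the smallest that 6 against 6 arrays allow.

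Npas4, a factor switched on by calcium entry in neurons, had 9.40, 10.06 and 10.41 in cuff and 7.33, 9.57 and 9.98 in sham. Its sham arrays spread more widely than its cuff arrays, and the difference was 0.95 ± 0.39 (SE; adjusted p = 1.00). Among the other Egr members, Egr4 differed by 0.70 ± 0.17, Egr3 by 0.31 ± 0.10 and Egr1 by 0.27 ± 0.09 (SE). Egr3 and Egr1 were bright probes with medians of 13.03 and 14.13 in cuff and 12.68 and 13.86 in sham, and for Egr3 the highest array was a sham array. Klf2 and Klf4, zinc finger factors also known from endothelium, differed by 0.60 ± 0.14 and 0.47 ± 0.20 (SE), and Nr4a2, an orphan nuclear receptor, by 0.51 ± 0.20 (SE). Without background correction Klf4 differed by 0.23 and Nr4a2 by 0.31, and over the mean of its 2 probes Egr3 differed by 0.17. With median scaling Egr1 differed by 0.17 (unadjusted p = 0.166).

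The members near 0 were Crem at 0.12 ± 0.08, Srf at 0.06 ± 0.08, Jund at 0.01 ± 0.23, Klf10 at 0.00 ± 0.20 and Klf6 at -0.01 ± 0.27 (SE). Srf encodes the factor that drives many of the genes above. The 4 probes of Crem and the 2 of Klf6 did not all have the same sign.

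**Figure D1:**
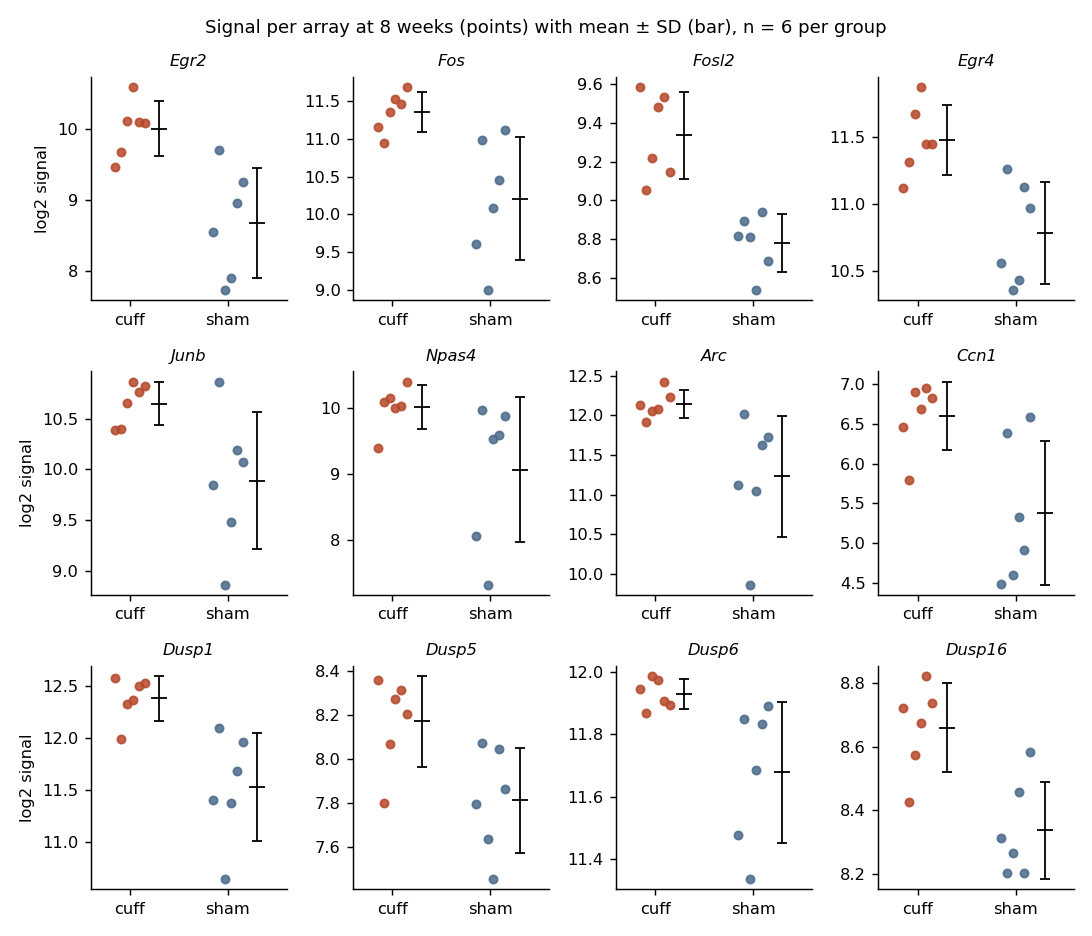
Log2 signal of 12 genes on each 8-week array, cuff left and sham right, with the mean and SD beside the points (n = 6 per group). Fosl2 shows no overlap between the groups, and Dusp1 has 5 cuff points above the highest sham point. Egr2, Fos, Junb, Npas4, Arc and Ccn1 have sham arrays far apart from each other.

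The activity-regulated effectors, which carry out the early response at synapses and in signalling, had a smaller median difference than the transcription factors. Of 24 genes 20 were kept, 18 of the 20 differed by more than 0 (49.3% of all probes did), 7 had an unadjusted p under 0.05 and higher signal in cuff (1.97% of all probes) and 0 lower (1.89%), and the median difference was 0.13. Arc, which removes AMPA receptors from synapses, had 11.92, 12.11 and 12.43 in cuff and 9.86, 11.37 and 12.02 in sham. In 5 of 6 cuff arrays it exceeded the highest sham value, and the difference was 0.91 ± 0.30 (SE; adjusted p = 1.00; exact permutation p = 0.00433).

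Ccn1 (also Cyr61), a secreted matrix protein, had the largest difference of the effectors, 1.22 ± 0.34 (SE; adjusted p = 0.806). It had 5.80, 6.75 and 6.94 in cuff and 4.49, 5.12 and 6.58 in sham, and was detected on 6 cuff and 3 sham arrays. All 3 of its probes were higher in cuff, the other two by 0.62 ± 0.25 and 0.50 ± 0.19 (SE). The remaining 5 with an unadjusted p under 0.05 were Trib1 at 0.71 ± 0.28, the kinase Sik1 at 0.59 ± 0.14, Gadd45b at 0.40 ± 0.15, Gadd45g at 0.38 ± 0.13 and the RNA-decay factor Zfp36 at 0.33 ± 0.11 (SE). Sik1 was dim, detected on 5 cuff and 2 sham arrays. Without background correction Ccn1 differed by 0.61, Trib1 by 0.43, Sik1 by 0.25 and Zfp36 by 0.21, and over the mean of its probes Ccn1 differed by 0.78.

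Of the 13 effectors with a larger unadjusted p, Bdnf, a neurotrophin, differed by 0.11 ± 0.15, Homer1, a postsynaptic scaffold, by 0.01 ± 0.09, Nptx2, a secreted pentraxin, by 0.09 ± 0.23, Vgf, a secreted neuropeptide precursor, by 0.03 ± 0.12 and Scg2, a granin, by -0.02 ± 0.11 (SE). For Bdnf and Homer1, 2 of the 4 probes of each had the opposite sign to the one given. Another probe of Vgf also had the opposite sign, at -0.13 ± 0.12 (SE).

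Among the MAP kinase phosphatases, Dusp1 had the largest difference of those kept. Of 11 genes 10 were kept, 4 had an unadjusted p under 0.05 and higher signal in cuff (1.97% of all probes) and 0 lower (1.89%), and the median difference was 0.07. Dusp1, which dephosphorylates p38, JNK and ERK in the nucleus, had 11.99, 12.44 and 12.58 in cuff and 10.64, 11.54 and 12.10 in sham. The lowest cuff array lay under the highest sham array, and the other 5 exceeded all sham values. The difference was 0.86 ± 0.22 (SE), 1.81-fold, with a limma p of 5.87e-04, an adjusted p of 0.470 and an exact permutation p of 0.00433.

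The further 3 phosphatases with such a p had smaller differences in the same direction. Dusp5, a nuclear ERK phosphatase, differed by 0.36 ± 0.13, with 7.80, 8.24 and 8.36 in cuff and 7.46, 7.83 and 8.07 in sham. Dusp6, a cytoplasmic ERK phosphatase that ERK signalling itself induces, differed by 0.25 ± 0.09 with 11.87, 11.93 and 11.99 in cuff and 11.34, 11.76 and 11.89 in sham. Dusp16, which acts on JNK and p38, differed by 0.32 ± 0.15, and its 3 probes agreed in sign. The cuff arrays were close together for Dusp6, with 5 of 6 above every sham array, while the sham arrays were spread. The other 6 phosphatases lay between -0.12 (Dusp7) and 0.08 (Dusp8).

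The lists of the kinase cascades that these phosphatases act on held no kept gene with an unadjusted p under 0.05. The ERK cascade list also holds Ras regulators and downstream kinases. Of its genes 16 were kept, 13 of the 16 were above 0 (49.3% of all probes were), and 0 had such a p in either direction. The median difference was 0.06, with a range from -0.04 (Spry4, an inhibitor of the cascade) to 0.16 (Elk4, an SRF partner). Of the p38 and JNK list 16 were kept, 9 of the 16 were above 0, and again 0 had such a p. Map2k6, an upstream kinase of p38, was the lowest at -0.33 ± 0.16 (SE) and at -0.21 without background correction, and Map3k7 the highest at 0.12 ± 0.16 (SE).

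**Figure D2:**
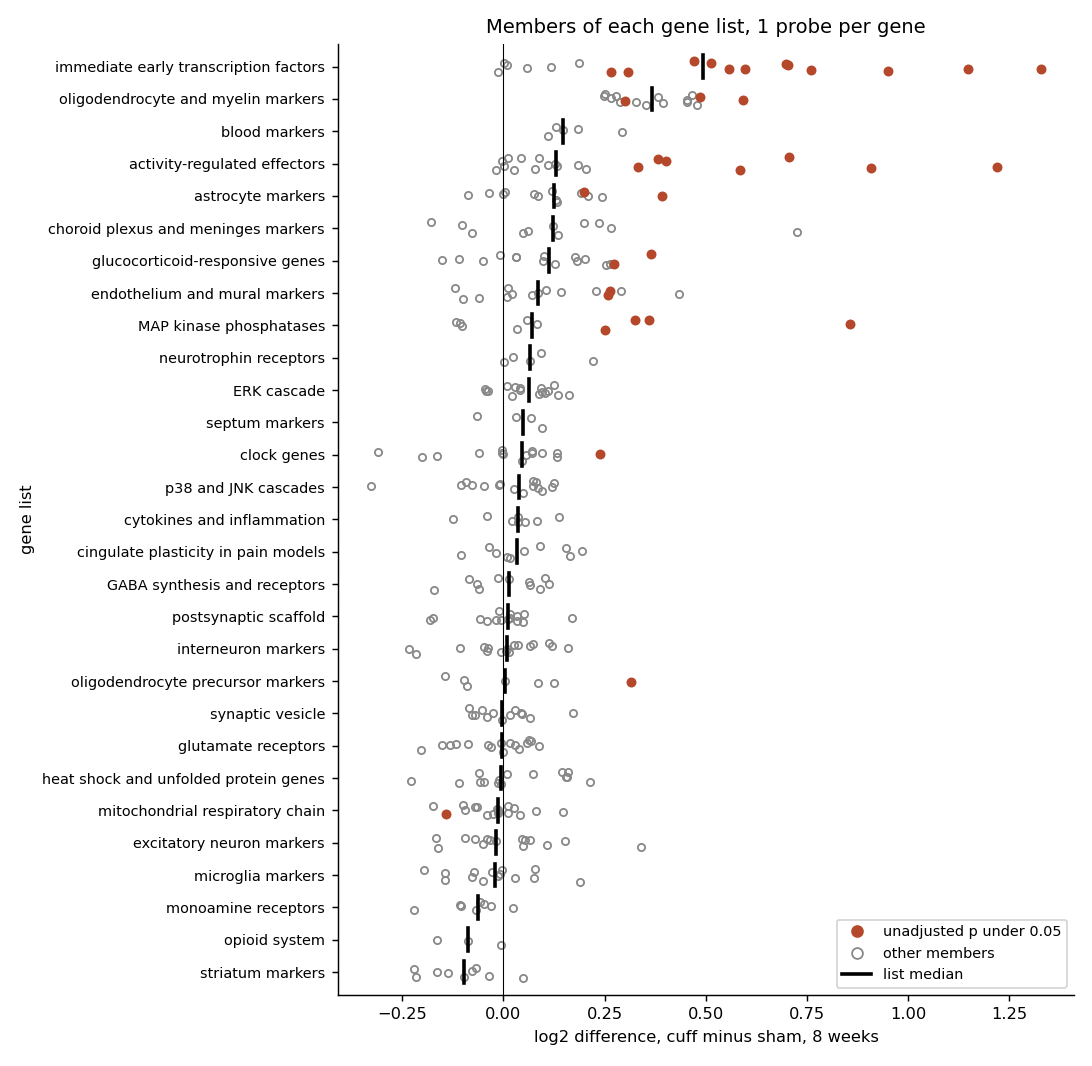
Log2 difference between cuff and sham at 8 weeks for the members of each gene list, with filled points for an unadjusted p under 0.05 and a bar at each list's median. The immediate early transcription factors have the highest median, 0.49, and the oligodendrocyte and myelin markers the next, 0.37, while most other lists lie around 0.

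The early gene response differed between arrays within each group. The mean log2 signal of the 18 transcription factors ran from 9.16 to 9.54 with a median of 9.38 in cuff, and from 8.44 to 9.19 with a median of 8.86 in sham. The groups overlapped narrowly, because replicates 2 and 6 of sham, at 9.19 and 9.17, reached the level of the lowest cuff array. Replicate 3 of sham had the lowest level of its group, and was the lowest sham array for 8 of the 18 genes. Without it Npas4 differed by 0.60 (unadjusted p = 0.0969), Klf4 by 0.30 (unadjusted p = 0.114) and the effector Trib1 by 0.45 (unadjusted p = 0.0767), and the count of 12 transcription factors was 10. In cuff, replicate 4 was the highest array for 8 of the 18, and replicates 1 and 2 were each the lowest for 8. The summed signal of the list ran from 35776 to 45189 in cuff and from 25463 to 37205 in sham.

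The other genes with the smallest p on the higher side joined these. Of the 12 named genes with the smallest p and higher signal in cuff, 7 belonged to the early gene and phosphatase lists. Those lists hold 48 of the 11172 genes named among the kept probes. The other 5 of the 12 were Dclk1, Amotl2, Tpm4, Tekt1 and Hsd17b12. Dclk1, a microtubule-binding kinase of neurons, had 9.36, 9.48 and 9.64 in cuff and 8.71, 9.07 and 9.35 in sham, with no overlap and a difference of 0.44 ± 0.09 (SE; adjusted p = 0.228). Other probes of Dclk1 differed by 0.09 ± 0.11 and 0.02 ± 0.14 (SE), so its difference rests on 1 probe. Tpm4, a tropomyosin of the actin cytoskeleton, had 6.73, 6.90 and 7.36 in cuff and 6.26, 6.30 and 6.50 in sham, and differed by 0.66 ± 0.16 (SE; adjusted p = 0.400).

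Amotl2, an angiomotin relative that binds the Hippo pathway factor YAP, differed by 0.48 ± 0.10 with no overlap and was detected on 6 cuff and 3 sham arrays. Tekt1, a protein of motile cilia, differed by 0.50 ± 0.13, and Hsd17b12, an enzyme of fatty acid elongation, by 0.70 ± 0.18 (SE). Over the mean of all kept probes Hsd17b12 differed by 0.43 and Dclk1 by 0.18. Without background correction Amotl2 differed by 0.19, Tekt1 by 0.22, Tpm4 by 0.42 and Hsd17b12 by 0.39. The probe with the second smallest p of all, ILMN_1230397, has no gene symbol in the annotation used. It had 7.58, 7.96 and 8.17 in cuff and 6.45, 7.01 and 7.35 in sham, a difference of 0.93 ± 0.18 (SE; adjusted p = 0.182) without overlap.

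The 12 named genes with the smallest p and lower signal in cuff differed by -0.24 to -0.55, less than most of the 12 on the higher side, which ran from 0.44 to 1.33. None of them belonged to the 3 lists above (0 of 12). Those lists hold only 48 of the 11172 genes named among the kept probes, so a count of 0 is uninformative. The smallest p of all probes was that of Gm5771, a predicted gene, which had 4.72, 4.84 and 4.99 in cuff and 5.21, 5.36 and 5.53 in sham. Its groups did not overlap and differed by -0.53 ± 0.09 (SE; adjusted p = 0.0855). The probe was dim, detected on 3 cuff and 6 sham arrays.

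Mdm1 and Ticam1 were similarly dim. Mdm1, a microtubule-binding protein of centrioles, differed by -0.45 ± 0.10 and was detected on 3 cuff and 6 sham arrays, and Ticam1, an adaptor of Toll-like receptor 3, differed by -0.43 ± 0.10 and was detected on 2 cuff and 6 sham arrays (SE). Another probe of Mdm1 differed by 0.39 ± 0.12 (SE), the opposite sign, and the mean of both probes by -0.03, so Mdm1 has no settled direction. Brighter probes on the lower side included Il17d, a cytokine of the interleukin 17 family, with 8.14, 8.28 and 8.42 in cuff and 8.47, 8.66 and 8.94 in sham. It differed by -0.40 ± 0.10 (SE; adjusted p = 0.400) with no overlap. Dynll2, a dynein light chain, differed by -0.51 ± 0.12, the peptidase Blmh by -0.36 ± 0.09, the nuclear protein Glyr1 by -0.24 ± 0.06 and the RNA helicase Ddx6 by -0.28 ± 0.07 (SE). Rab13, a small GTPase of vesicle traffic, differed by -0.55 ± 0.13, Atp2b4, a plasma membrane calcium pump, by -0.46 ± 0.12, Pigk, an enzyme of lipid anchor attachment, by -0.44 ± 0.12 and Alg8, a glycosyltransferase, by -0.46 ± 0.13 (SE). Over the mean of all kept probes of a gene the differences were smaller for Rab13 (-0.37), Dynll2 (-0.26), Blmh (-0.21), Pigk (-0.26) and Alg8 (-0.13). For Ddx6 that mean was -0.13 (unadjusted p = 0.566). Without background correction the difference was -0.21 for Gm5771, -0.18 for Mdm1, -0.18 for Ticam1, -0.26 for Rab13, -0.21 for Atp2b4 and -0.22 for Alg8. In 7 of the 12, every cuff array lay below every sham array, as for 29 of all probes (0.139%). The 12 were chosen by their small p on these same arrays, which favours such separation, so the count is a description.

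Markers of oligodendrocytes and myelin also had higher signal in cuff at 8 weeks. All 16 kept genes of the list differed by more than 0 (49.3% of all probes did), with a median of 0.37, and 3 had an unadjusted p under 0.05 (1.97% of all probes, higher in cuff), 0 in the other direction. In bulk tissue a change in the number of cells of a type and a change in RNA per cell cannot be told apart. Mal, a proteolipid of compact myelin, had 9.38, 10.25 and 10.93 in cuff and 9.28, 9.53 and 10.00 in sham, and differed by 0.59 ± 0.25 (SE; adjusted p = 1.00). Tspan2, a tetraspanin, differed by 0.49 ± 0.21, Olig1, a lineage transcription factor, by 0.30 ± 0.14, and Mbp, the main protein of compact myelin, by 0.25 ± 0.20 (SE). Another probe of Mal differed by 0.25 ± 0.29 (SE). Over the mean of its probes Mbp differed by 0.16, and a dimmer Mbp probe had the opposite sign, at -0.09 ± 0.11 (SE).

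The myelin markers set cuff arrays apart from each other more than cuff from sham. Their mean log2 signal ran from 9.67 to 11.03 in cuff, a range that holds all of the sham values, 9.78 to 10.31. Replicate 1 of cuff had the highest signal of its group for 14 of the 16 genes and replicate 3 the lowest for 12. Replicate 1 was, for the early genes, among the lowest cuff arrays, and replicate 4, the highest for the early genes, was the lowest for 4 myelin genes and the highest for 0. The count of 3 was 0 without replicate 1 or replicate 6 of cuff, 1 without replicate 5 of cuff or of sham, 7 without replicate 4 of cuff and 9 without replicate 3 of cuff, and all 16 stayed above 0 each time. The counts of the 3 early gene and phosphatase lists stayed at 10 to 13, 5 to 8 and 3 to 4 over 35 alternatives that include each such omission.

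**Figure D3:**
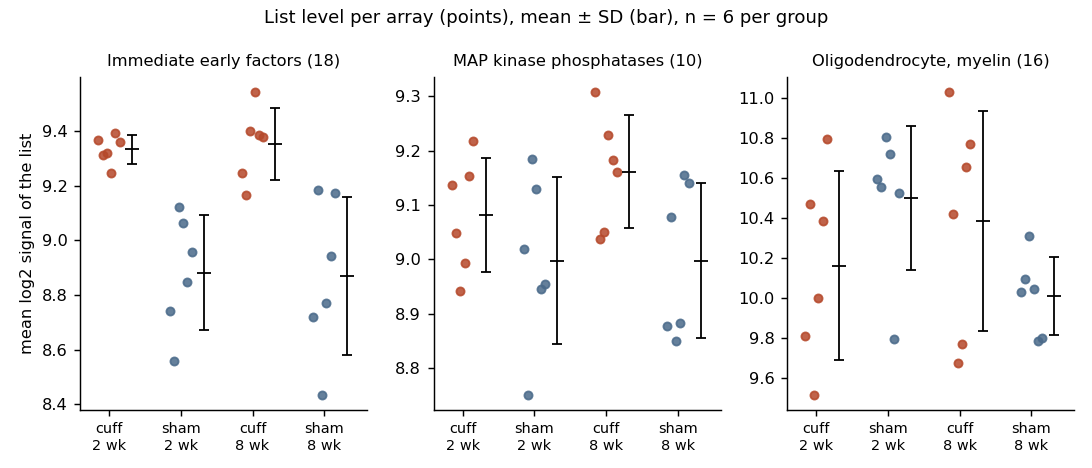
Mean log2 signal of 3 gene lists on each array, with cuff left of sham at 2 and at 8 weeks and the mean and SD beside the points (n = 6 per group). At 8 weeks the immediate early factors lie between 9.16 and 9.54 in cuff and 8.44 and 9.19 in sham, and the myelin markers spread more widely in cuff, 9.67 to 11.03, than in sham, 9.78 to 10.31.

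For astrocytes the median over 14 markers was 0.12, 11 of the 14 were above 0 (49.3% of all probes were), and 2 had an unadjusted p under 0.05 and higher signal in cuff (1.97% of all probes). These were Glul, glutamine synthetase, at 0.39 ± 0.17 (0.19 once the mouse number enters the fit) and Gja1, a connexin of gap junctions, at 0.20 ± 0.08 (SE). Gfap, the intermediate filament that reactive astrocytes raise, differed by 0.24 ± 0.23 (SE). The 14 microglial markers had a median of -0.02 and 0 with such a p, from Tyrobp at -0.20 ± 0.14 to Ctss at 0.19 ± 0.16 (SE). Of 20 cytokine and inflammation genes 8 were kept, 0 with such a p, and Il1b, Il6, Tnf and Ccl2 were among the 11 below the detection rule.

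Endothelial and mural markers had a median of 0.09 over 15, with 12 of the 15 above 0 (49.3% of all probes) and 2 at an unadjusted p under 0.05 and higher in cuff (1.97% of all probes). These were Flt1 and Pecam1, both of endothelium, at 0.26 ± 0.10 and 0.26 ± 0.12 (SE). Flt1 differed by 0.17 once the mouse number enters the fit (unadjusted p = 0.117), and Pecam1 by 0.15 without background correction. Of 7 oligodendrocyte precursor markers 4 were above 0 and 1, Pdgfra, the receptor that defines these cells, had an unadjusted p under 0.05 and higher signal in cuff (1.97% of all probes), at 0.32 ± 0.12 (SE). Excitatory neuron markers (median -0.02 over 15) and interneuron markers (median 0.01 over 17) had 0 each. The striatal markers had a median of -0.10 over 9, 1 of them above 0, and the septal markers 0.05 over 4. Ttr, a marker of choroid plexus, differed by 0.72 ± 0.57 (SE), with single arrays from 8.35 to 11.44 in cuff and 7.55 to 10.32 in sham, and 0 of 11 markers of choroid plexus and meninges had an unadjusted p under 0.05. Without replicate 5 of cuff Ttr differed by 0.38, without replicate 4 of sham by 0.44 and without replicate 5 of sham by 0.47, and with array weights by 1.12. The blood markers had a median of 0.15 over 5, all 5 above 0 (49.3% of all probes were) and 0 with an unadjusted p under 0.05, from Alas2, of haem synthesis, at 0.11 ± 0.19 to S100a8, of neutrophils, at 0.29 ± 0.42 (SE). At 2 weeks their median was -0.12, with 1 of 5 above 0. The part that cell composition has in the early gene differences was not tested.

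Genes of synaptic transmission differed little. The 16 glutamate receptor genes had a median of -0.00 and 0 with an unadjusted p under 0.05 in either direction, from Gria1, an AMPA receptor subunit, at -0.20 ± 0.13 to Grm7, a presynaptic receptor, at 0.09 ± 0.08 (SE). The same count of 0 held for 11 GABA genes, 8 monoamine receptors, 3 opioid genes, 5 neurotrophin and receptor genes, 15 postsynaptic scaffold genes and 13 synaptic vesicle genes, whose medians lay between -0.09 and 0.06. Of the monoamine receptors 1 of 8 was above 0, and Drd1, the dopamine D1 receptor, was lowest at -0.22 ± 0.16 (SE). In a list of 10 genes known from cingulate plasticity in pain models the largest difference was that of Adcy1, the calcium-stimulated adenylyl cyclase, at 0.19 ± 0.11 (SE; 0.01 over the mean of its probes), and Camk2a and Prkcz, kinases of synaptic potentiation, were at -0.02 ± 0.08 and 0.05 ± 0.08 (SE).

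Of 16 glucocorticoid-responsive genes 12 were above 0 (49.3% of all probes), the median was 0.11, and 2 had an unadjusted p under 0.05 and higher signal in cuff (1.97% of all probes). Sgk1, a kinase, differed by 0.36 ± 0.15 and Nr3c1, the glucocorticoid receptor itself, by 0.27 ± 0.10, while Fkbp5, a sensitive target of that receptor, was at -0.15 ± 0.11 (SE). The Nr3c1 probe was dim and was detected on 5 cuff and 1 sham arrays, and without background correction it differed by 0.13. Of 15 clock genes 9 were above 0 and 1, Arntl, a core activator, had an unadjusted p under 0.05 and higher signal in cuff (1.97% of all probes), at 0.24 ± 0.12 (SE; unadjusted p = 0.04997). Nr1d1, its repressor, differed by -0.31 ± 0.24 (SE). Once the mouse number enters the fit, Arntl differed by 0.09 (unadjusted p = 0.351) and Nr1d1 by -0.15. Of heat shock and unfolded protein genes 0 of 15 had such a p in either direction, and of the respiratory chain 1 of 18 was lower in cuff (1.89% of all probes), Ndufa4 at -0.14 ± 0.07 (SE).

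The 2-week mice, whose group means share no arrays with those at 8 weeks, gave similar values for the early genes. Both times share 1 normalization and 1 estimate of the spread, so their SE and p are not independent. At 2 weeks 2 of the 20825 probes passed (0.0096%), and Egr2 was among them with a rise of 1.75 ± 0.27 (SE; adjusted p = 0.0238), against 1.33 at 8 weeks. Of the 18 transcription factors 10 had an unadjusted p under 0.05 and higher signal in cuff at 2 weeks (2.45% of all probes) and 0 lower (2.38%), with a median of 0.28. Fos differed by 1.11 at 2 weeks and 1.15 at 8 weeks, Arc by 1.18 and 0.91, Junb by 1.11 and 0.76, and Fosl2 by 0.32 and 0.56. All 6 cuff arrays lay above all sham arrays for 4 of the 18 at 2 weeks, against 0.11% of all probes.

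Dusp1 differed by 1.13 ± 0.22 at 2 weeks (SE; adjusted p = 0.123) and 0.86 ± 0.22 at 8 weeks, and the change between the times was -0.27 (unadjusted p = 0.389). Dusp6 and Dusp5 had 0.33 and 0.30 at 2 weeks, close to their 8-week values of 0.25 and 0.36. Dusp16 had -0.20 at 2 weeks against 0.32 at 8 weeks, a change of 0.53 with an unadjusted p of 0.0198 and an adjusted p of 0.983. Zfp36 likewise had -0.12 at 2 weeks and 0.33 at 8 weeks.

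The test of the change between the times found 0 of 20825 probes (0%), with a smallest adjusted p of 0.676, and 1014 probes (4.87%) at an unadjusted p under 0.05. Among the immediate early transcription factors 0 of 18 had such a p. Of the 29 lists the myelin markers had the most such members, 8 of 16. Their median was -0.38 at 2 weeks with 1 of 16 above 0, against 0.37 at 8 weeks, and the smallest adjusted p among them was 0.983. The 12 named genes lowest in cuff by p at 8 weeks had 2-week differences from -0.13 to 0.20, 6 of them below 0, and 10 had an unadjusted p under 0.05 for the change. These genes were chosen on the 8-week difference, which enters that change, so the count is a description. Of the 12 on the higher side 11 were also above 0 at 2 weeks, Tekt1 being the exception at -0.04. The share of all probes above 0 at 2 weeks was not counted, and their median 2-week difference was 0.00075. Since 7 of these 12 belong to lists chosen with earlier results of these data known, this count too is a description.

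**Figure D4:**
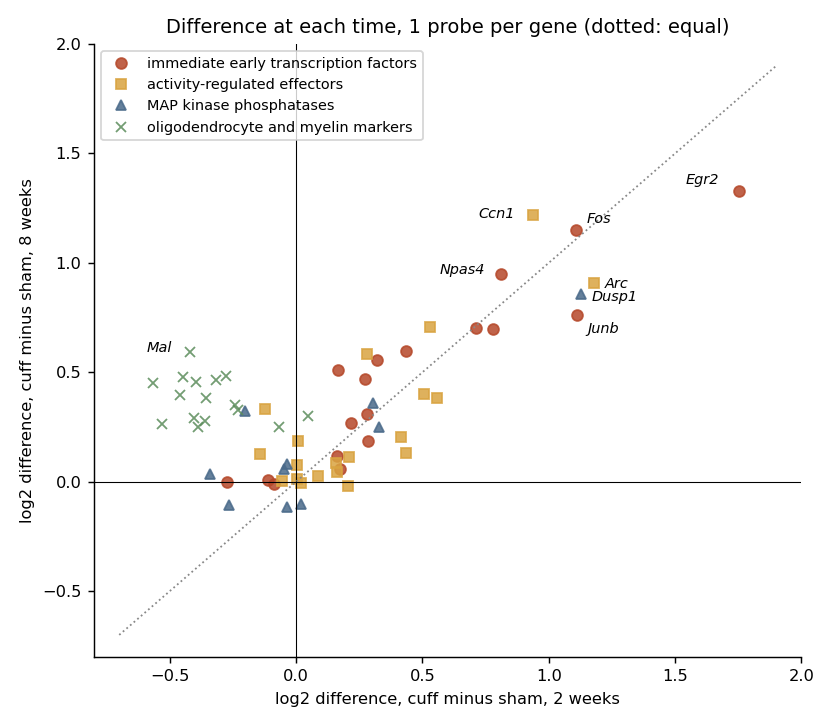
Log2 difference between cuff and sham at 2 weeks (horizontal) and 8 weeks (vertical) for the members of 4 gene lists, with a dotted line where both are equal. Egr2, Fos, Arc, Junb, Npas4, Ccn1 and Dusp1 lie high on both axes, and the myelin markers lie above 0 at 8 weeks and, for 15 of 16, below 0 at 2 weeks.

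With array weights, which give arrays that vary more from their group less influence, 17 probes passed at 8 weeks, 12 higher and 5 lower in cuff. Of the 17, 10 carried a symbol. Egr2 (1.41), Fos (1.24), Ccn1 (1.42), Fosl2 (0.50), Dclk1 (0.46), Amotl2 (0.45) and Tekt1 (0.58) were higher in cuff and Gm5771 (-0.56), Mdm1 (-0.44) and Il17d (-0.42) lower, on the log2 scale. Their adjusted p ran from 0.0019 to 0.0495. Dusp1 did not pass there, nor in any of its 36 alternatives, in which its difference stayed between 0.68 and 0.97.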

How the data were processed

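Total RNA of the anterior cingulate cortex was hybridised to Illumina bead arrays, 6 arrays for each of 4 groups (cuff and sham, 2 and 8 weeks), with groups taken from the source labels. A linear intensity and a detection p-value per probe and array were deposited, per the file headers. The submitters' processing notes name GenomeStudio 2011.1 without settings. The authors' second deposited table of intensity values matched a quantile normalization of the same signals without background correction, as read from the values, and served as an alternative.

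Intensities were processed with neqc in limma 3.58.1 (R 4.3.3): normexp background correction with negative-control statistics inferred from the detection p-values, an offset of 16, quantile normalization and log2. For dim probes the offset shrinks log2 differences, although those of dim probes such as Gm5771 were smaller still without background correction. A probe was kept when 6 or more of the 12 8-week arrays gave a detection p under 0.05. A limma model (lmFit, eBayes) took in all 24 arrays, 1 mean for each group (20 residual degrees of freedom, prior 4.85), with Benjamini-Hochberg adjustment over 20825 probes and a threshold of 0.05. The number of arrays limits the precision, and the median SE was 0.117. Exact permutation tests were two-sided over 924 relabellings, and Fos, Egr2 and the other named genes also carry them as an alternative.

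Gene symbols come from the platform annotation, which can be old, and 3154 kept probes had none and 9 had several genes. A gene with several kept probes is represented by the probe with the highest mean over the 12 arrays. Named genes are the 12 with the smallest p in each direction that carry a symbol, a fixed set (Dusp1, Fos, Fosb, Junb, Egr1, Egr2, Nr4a1, Arc, Npas4, Bdnf, Mapk3 and 1 that is not reported here), and in each of 29 lists the highest, the lowest and every member with an unadjusted p under 0.05. Other members are named to complete a list and were chosen after their values were seen. Lists are described by counts and medians without a test. The members and lists were chosen with earlier results of these data known. The design text calls the arrays biological replicates. Replicate numbers were given in sample order and pair nothing.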

Additional observations from a re-analysis of the deposited data

Results flagged for a closer look

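Within the 6 cuff or the 6 sham arrays of 8 weeks, each named gene and probe was examined for a single array far from the others, by the gap to its nearest neighbour over the whole range, against Dixon's critical value. An array stood apart in 8 of 222 tests, and about 11.1 would do so by chance, 1 group in 20. In cuff, replicate 4 stood high for Bdnf, with a log2 signal of 10.12, and for Adcy1, with 11.53, and replicate 2 stood high for the chaperone gene Sdf2l1, with 7.41. In sham, replicate 2 stood high for Blmh, with 9.10, and for Nr3c1, with 5.02. Replicate 6 of sham stood low for the astrocyte marker Aldh1l1, with 7.98, and high for the neutrophil marker S100a8, with 7.01, and replicate 1 of sham stood low for Adcy1, with 10.71. The difference of 0.19 given for Adcy1 thus includes a high cuff array and a low sham array.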

How the results depend on the processing

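Alternatives changed the background correction, the normalization, the source of the values, the detection filter, the arrays in the fit, array weights, the variance prior, a covariate, the threshold, the probe of a gene and the test, and left out each array in turn. The counts in 4 lists were added after seeing the data. The count of 0 probes at 8 weeks became 17 under array weights, 1 (Gm5771) at a looser adjusted p of 0.1 and 1 with the median raw signal as a covariate (Gm5771). With 1 array left out it ran from 0 to 2, being 1 without replicate 3 of the 2-week cuff and 2 without replicate 5 of the 2-week sham. The cause was not tested. The change between the times stayed at 0 in 34 alternatives. The myelin count of 3 ran from 0 to 9 with 1 array left out. Of 3773 values for 104 single genes or probes, 3709 kept their direction and side of the threshold, 17 passed and 47 turned sign. Against values within 1 SE of 0 or, for Atp5a1, from one of 2 probes, the sign turned as follows. With median scaling Spry4 was 0.0085, Klf6 0.0042 and Pdyn 0.0069. With array weights Klf6 was 0.040, Htr2a -0.069 and Ntrk2 -0.013. With the raw signal covariate Klf6 was 0.0076, Ntrk2 -0.0037 and Pdyn 0.0031. With the mouse number as a covariate Scg2 was 0.080, S100a8 -0.15, Spry4 0.039, Map3k7 -0.016 and Zic4 -0.029. With the mean of a gene's probes Cacna2d1 was 0.054, Klf6 0.0078 and Atp5a1 -0.021. With 1 array left out Htr2a ran from -0.066 to 0.095, Pdyn from -0.059 to 0.069, Klf6 from -0.12 to 0.14, Ntrk2 from -0.072 to 0.043, Scg2 from -0.072 to 0.048, S100a8 from -0.12 to 0.65, Spry4 from -0.097 to 0.030, Zic1 from -0.18 to 0.081, Alas2 from -0.015 to 0.16 and Cacna2d1 from -0.24 to 0.089. No paired analysis was possible because the replicate numbers were given in sample order and no label pairs the mice. Dim probes such as Gm5771 lie close to the offset, which limits their differences. Without background correction these differences were smaller still, at -0.21 for Gm5771 against -0.53 with it. The same held for the dim probes of Mdm1, Ticam1, Amotl2 and Sik1, so the values given for them are at the larger end.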
